A study of Mus musculus with 24 samples.

Results

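The genes described here are 47 mouse genes whose products start, drive, time or complete mitosis. The rule took them by symbol, as the rows of the deposited count table that carry these 47 names among 49568 gene rows. No expression value entered the rule itself, but the list was drawn up with earlier results of these data known. All 47 were found, and all 47 passed the filter on low counts in each of the 9 comparisons made. By role, 10 are mitotic cyclins, kinases and their close regulators, 5 belong to the spindle checkpoint, 4 to anaphase promotion, 7 to centromeres and kinetochores and 4 to the chromosomal passenger complex. A further 9 are kinesins and other microtubule binders of the spindle, 6 act in the central spindle and cytokinesis, and 2 (Top2a and Mki67) shape mitotic chromosomes.

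The RNA came from the established mouse embryo fibroblast line NIH/3T3, kept for 24 h with halofuginone, at 100 nM per the sample labels, or with PBS as vehicle. Halofuginone occupies the proline site of Eprs, the enzyme that charges tRNAs with glutamate and proline. Whole-cell RNA (total RNA) and 3 pools of polysome gradient fractions were sequenced after each treatment: a ribosome-free pool, a light pool of mRNAs on few ribosomes, and a heavy pool of mRNAs on more than 5. The 8 groups therefore were vehicle and halofuginone in total RNA, in ribosome-free RNA, in light polysomes and in heavy polysomes, with 3 libraries in each and 24 in all. Both treatments shared the cell line, the medium with bovine calf serum and the temperature, and the labels mention no synchronisation of the cells. Defining fibroblast markers were present in total RNA (8 of 8 at 5 CPM or more), and 0 of 5 epithelial and 0 of 6 leukocyte markers reached that level. Of 5 endothelial markers only Vwf did, and its level took the summed endothelial markers from 10.5 to 17.1 CPM in vehicle libraries to 26.3 to 85.9 CPM with halofuginone. Of 5 adipocyte markers Lpl and Fabp4 did, and the summed adipocyte markers were 134 to 282 CPM in vehicle and 89.4 to 168 CPM with halofuginone. The part of these markers in the results was not tested. CPM is a gene's count scaled to a common library size, with TMM factors within a kind of RNA unless said otherwise.

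As background, entry into mitosis is driven by Cdk1 bound to cyclin B, with Plk1 and the Aurora kinases acting alongside. The spindle checkpoint holds the anaphase-promoting complex and its activator Cdc20 in check until every kinetochore is attached, after which securin and cyclin B are degraded and separase opens cohesin. Most of these genes are transcribed in G2 and mitosis and shut off in G0 and G1, and their promoters commonly carry a cell cycle genes homology region (CHR), where the DREAM complex represses them in resting cells and MuvB with B-Myb and Foxm1 activates them in cycling cells, near CCAAT boxes bound by NF-Y. The level of such an mRNA in a culture thus follows both the share of cells near mitosis and the amount per cell. In these bulk libraries fewer cells in mitosis and less RNA per cell cannot be told apart.

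Promoter sequences are shown first, for 6 genes whose values recur below. They run from 120 bases before to 30 bases after the transcription start annotated by RefSeq (build GRCm38.p6), 5′ to 3′ on the strand of the gene. Capitals mark CHR letters (TTTGAA, or TTCAAA as it reads on the other strand) and CCAAT boxes (CCAAT, or ATTGG on the other strand). The intervals are chr9:70421525-70421674 for Ccnb2 and chr10:69352883-69353032 for Cdk1, both on the minus strand, chr4:118437314-118437463 for Cdc20 on the minus strand, and chr5:30666766-30666915 for Cenpa on the plus strand. Those of Ccnb1 and Bub3 are chr13:100786457-100786606 on the minus strand and chr7:131560250-131560399 on the plus strand. The first 4 genes hold both motifs, Ccnb1 is shown because it has CCAAT boxes and no CHR match, and Bub3 because it has both motifs while its mRNA level did not move with the others.
Ccnb2: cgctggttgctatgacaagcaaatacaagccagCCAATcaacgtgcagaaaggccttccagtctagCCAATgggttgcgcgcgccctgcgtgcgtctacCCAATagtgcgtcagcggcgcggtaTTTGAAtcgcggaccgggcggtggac
Cdk1: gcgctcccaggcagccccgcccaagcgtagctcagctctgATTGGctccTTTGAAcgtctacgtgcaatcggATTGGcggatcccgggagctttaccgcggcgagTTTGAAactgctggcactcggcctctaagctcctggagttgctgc
Cdc20: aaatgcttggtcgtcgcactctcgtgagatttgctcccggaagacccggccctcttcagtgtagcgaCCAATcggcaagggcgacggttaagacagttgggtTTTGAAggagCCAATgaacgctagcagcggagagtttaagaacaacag
Cenpa: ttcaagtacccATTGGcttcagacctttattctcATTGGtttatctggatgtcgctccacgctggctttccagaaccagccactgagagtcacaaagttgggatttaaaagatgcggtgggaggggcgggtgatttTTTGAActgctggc
Ccnb1: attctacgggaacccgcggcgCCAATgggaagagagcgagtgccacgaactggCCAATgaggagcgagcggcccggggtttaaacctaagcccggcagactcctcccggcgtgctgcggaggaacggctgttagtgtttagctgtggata
Bub3: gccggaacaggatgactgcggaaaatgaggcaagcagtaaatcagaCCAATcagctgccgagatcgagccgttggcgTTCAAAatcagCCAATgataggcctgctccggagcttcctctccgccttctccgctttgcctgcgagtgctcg

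In Ccnb2, 3 CCAAT boxes start 87, 54 and 21 bases before the start site and the CHR letters begin at base 5 after it. In Cdk1 the nearer CHR match begins 15 bases before the start. Of the 47 genes, 39 had an entry in the promoter table, with 42 promoters of 300 bases (250 before to 50 after a start). CHR letters on either strand stood in 32 of these 42 promoters (76.2%), against 17.9% of all 32851 promoters in the table and 11.96% of the promoters of genes tested in total RNA. CCAAT on either strand stood in 33 (78.6%), against 37.4% of all promoters, and 24 (57.1%) held 2 or more such boxes, against 11.7%. Both motifs were present in 29 (69.0%), against 6.95%. Neighbouring CHR and CCAAT matches can share an end base. E2F letters (TTTCCCGC or TTTGGCGC, both strands) were in 0 of the 42 promoters and in 1.56% of all, while 9 of 32 promoters of DNA replication genes (28.1%) held them.

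Counted per promoter, 30 of 39 CHR matches (76.9%) began within 50 bases of the start, whereas 25.3% of the 6737 matches over all promoters did. The promoters of 3 genes with more than 1 start (Bub3, Ect2 and Prc1) overlap and hold the same letters, so the 39 matches are 35 distinct ones. Of these 35, 28 lay within 50 bases of a start. Where a CCAAT box lay upstream of a CHR match, the median distance between their first bases was 32 bases over 29 distinct matches, and 12 of the 29 distances lay between 26 and 38 bases. A match is a stretch of letters and not a measured binding site.

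**Figure D1:**
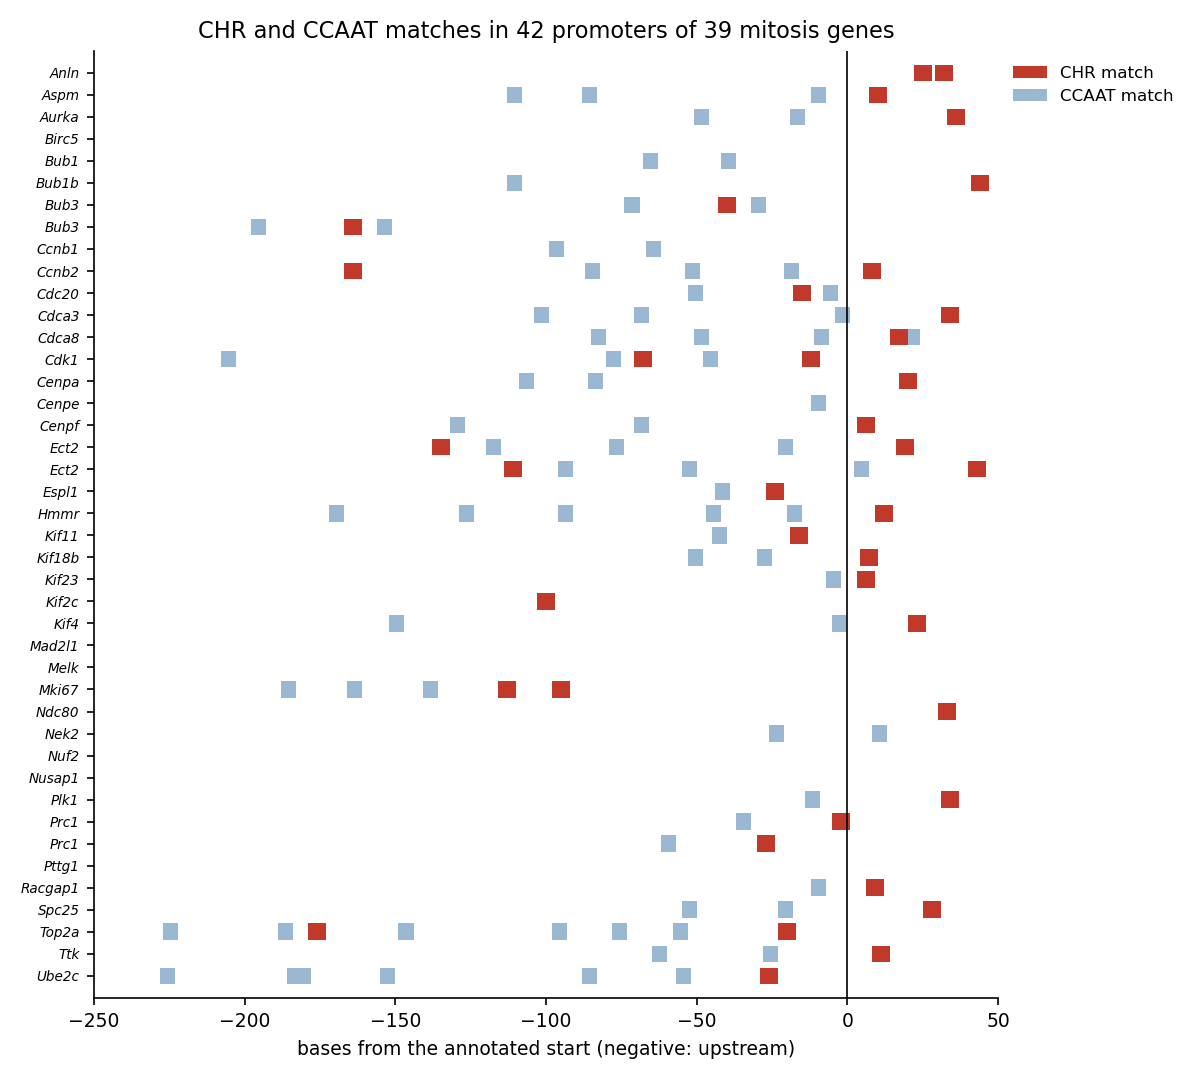
Positions of CHR letters (red) and CCAAT boxes (blue) in 42 promoters of 39 mitosis genes, with distance from the annotated start in bases on the horizontal axis and 1 promoter per line. Red marks gather within 50 bases of the start, with blue marks upstream of them, and genes with more than 1 annotated start have more than 1 line.

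Before the expression values, some libraries have to be set apart. The column headers divide the libraries into 8 of one kind (set A, 1 library per group) and 16 of another (set B, tags 2 and 3 in total RNA, tags 2 and 4 in the pools). For halofuginone the set A headers give 50 nM, which differs from the 100 nM of the labels, and the pools were cut from fractions 1 to 2, 3 to 6 and 7 to 11 in set A but from 1 to 5, 6 to 13 and 14 to 21 in set B. Depth ranged from 10300517 to 24970047 counts per library. The set A halofuginone library of total RNA lay close to its vehicle partner for the mitosis genes. Trib3, a gene induced under amino acid stress, rose there too, but less than in set B. Its log2 ratio was 1.11 in set A and 3.92 and 3.96 with tags 2 and 3. In the pools the order was another: Trib3 had log2 ratios of 3.91 in set A, 0.54 with tag 2 and 2.08 with tag 4 in heavy polysomes, and 3.37, -0.31 and 0.01 in RNA free of ribosomes. Libraries that carry tag 2 thus showed a large Trib3 response in total RNA and little in the pools. Whether any library was exchanged or its header is wrong was not tested, and either would bear on the pair ratios and fold changes given below. The 2 halofuginone libraries of set B in total RNA were also unusually alike: the chi-square of their counts averaged 3.12 per gene (1 is sampling noise), where the next most alike pair in any group had 21.1. No label links tags with cultures, and the p-values below measure the spread between these libraries, which may be technical.

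The first comparison asks what halofuginone did to the abundance of mitosis mRNAs in total RNA. The answer differed between libraries far more than between treatments. Summed over the 47 genes, the vehicle libraries with set A, tag 2 and tag 3 headers held 6668, 5327 and 5203 CPM. Their halofuginone partners held 6805, 1990 and 1965 CPM. In the set A pair the median log2 ratio of halofuginone to vehicle over the 47 genes was 0.02, with 19 genes below 0 and none beyond 2-fold. In the tag 2 pair it was -1.51, with 46 of 47 below 0 and 41 lower by more than 2-fold, and in the tag 3 pair -1.54, with all 47 below 0 and 39 lower by more than 2-fold. Across all genes tested those medians were -0.01, -0.01 and 0.02, and 51.3%, 50.6% and 49.0% of them lay below 0. The share of all genes beyond 2-fold was not counted.

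With all 3 libraries per group the quasi-likelihood test of edgeR called 0 of the 47 genes at an adjusted p under 0.05, and it called 0% of all 13020 genes lower. All 47 fitted log2 fold changes were below 0, from -1.13 (Mki67) to -0.01 (Bub3), with a median of -0.74 where the median of all genes was 0.02. The smallest adjusted p was 0.267. Only 1 member (Aspm) had an unadjusted p under 0.05, a threshold at which the share of all genes is not given here. DESeq2 called 0 of the 47, beside 1.68% of all genes lower and 2.26% higher. All halofuginone libraries lay below all vehicle libraries for 2 of the 47 (Aspm and Anln), against 11.6% of all genes. Once the halofuginone library of set A was left out, 46 of the 47 were called lower by edgeR, with a median of -1.72, and 31.6% of the 13455 genes tested were called lower there too.

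Within set B, with 2 libraries per group, 46 of the 47 genes fell, and 36.9% of the 13334 genes tested were called lower there. The median log2 fold change was -1.59 over the 47 genes and -0.02 over all genes tested. The fall reached all 10 mitotic cyclins, kinases and regulators, 4 of 5 checkpoint genes, all 4 anaphase genes, all 7 kinetochore genes, all 4 passenger genes, all 9 spindle genes, all 6 cytokinesis genes and both chromosome structure genes. That the members of this list fall in set B was known from earlier results on these data, so the count describes and does not test the choice. Set B was also set apart with those results known, and its adjusted p-values below do not allow for that choice.

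**Figure D2:**
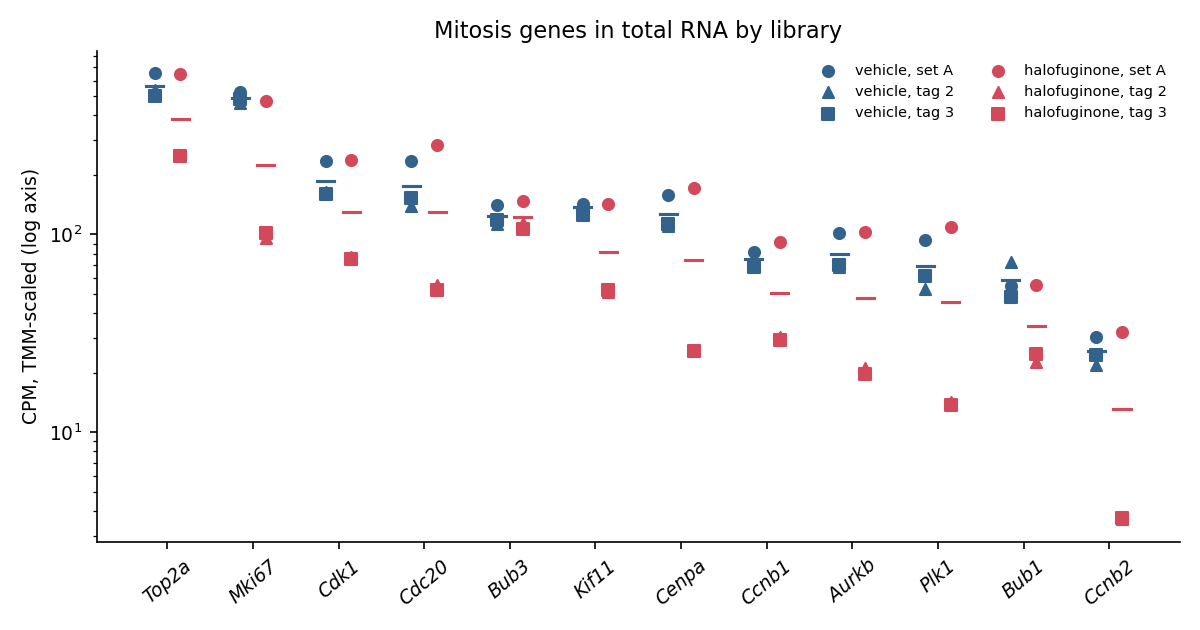
TMM-scaled CPM (log axis) of 12 mitosis genes in the 6 libraries of total RNA, vehicle in blue and halofuginone in red, with circles for set A, triangles for tag 2, squares for tag 3 and a short line at each group mean. For every gene but Bub3 the tag 2 and tag 3 halofuginone points lie below all vehicle points, while the set A halofuginone point lies among or above them.

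Among the kinases and cyclins, Cdk1 (chr10:69335146-69352938, minus strand), the kinase that starts mitosis, stood at 235, 164 and 160 CPM in vehicle and at 238, 76.9 and 75.4 CPM with halofuginone (set A, tag 2 and tag 3, the order used throughout for total RNA). The set A value matched vehicle and the set B values were less than those of any vehicle library. Over all libraries its log2 fold change was -0.52 ± 0.49 (SE, n = 3 per group, edgeR adjusted p = 0.538), and within set B -1.13 ± 0.07 (n = 2 per group, adjusted p = 5.06e-06). Ccnb1 (chr13:100778650-100786570), encoding cyclin B1, stood at 81.2, 77.0 and 68.6 CPM against 91.3, 30.3 and 29.3 CPM, with fits of -0.59 ± 0.47 (adjusted p = 0.470) and -1.33 ± 0.09 (adjusted p = 7.17e-06). Ccnb2 (chr9:70407692-70421547), the second B-type cyclin, was the least abundant of the 12 and fell furthest among them. It stood at 30.5, 21.98 and 24.7 CPM against 32.1, 3.63 and 3.67 CPM, with fits of -0.97 ± 0.87 (adjusted p = 0.516) and -2.72 ± 0.13 (adjusted p = 1.61e-06). Plk1 (chr7:122159439-122169873), a kinase of centrosomes, kinetochores and the midbody, stood at 93.4, 52.8 and 62.0 CPM against 109, 14.2 and 13.8 CPM. Its fits were -0.60 ± 0.84 (adjusted p = 0.665) and -2.08 ± 0.11 (adjusted p = 2.16e-06). The role group ranged within set B from -0.98 (Nek2, a centrosome kinase) to -3.11 (Cdca3, an adaptor for degradation of Wee1). Cdca3 had the largest fall of all 47 genes, from 109, 74.3 and 80.3 CPM in vehicle to 114, 9.66 and 8.79 CPM, with a standard error of 0.10 and an adjusted p of 2.68e-07.

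The spindle checkpoint genes spread most widely. Bub1 (chr2:127801122-127831865), the kinase that recruits checkpoint proteins to kinetochores, stood at 55.1, 72.6 and 48.4 CPM in vehicle and 55.4, 22.8 and 24.9 CPM with halofuginone. The fits were -0.77 ± 0.39 (adjusted p = 0.325) and, in set B, -1.40 ± 0.18 (adjusted p = 2.44e-04). Bub1b, which encodes the checkpoint inhibitor BubR1, had 138, 113 and 114 CPM against 155, 21.2 and 23.1 CPM and fell by 2.40 ± 0.08 on the log2 scale in set B. Bub3 (chr7:131560222-131571895), the WD-repeat partner of both, was the exception among the 47. Its libraries stood at 140, 113 and 118 CPM in vehicle and at 148, 114 and 106 CPM with halofuginone, so the groups overlapped, within set B as well. The fits were -0.01 ± 0.19 (adjusted p = 0.970) and -0.11 ± 0.07 (adjusted p = 0.198). Mad2l1, which inhibits Cdc20, had the smallest change among the genes that fell in set B, -0.67 ± 0.09 (adjusted p = 3.39e-04), with 114, 113 and 97.5 CPM against 113, 67.0 and 70.0 CPM.

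Of the genes of anaphase, Cdc20 (chr4:118432901-118437352), which activates the anaphase-promoting complex, stood at 236, 139 and 153 CPM in vehicle and 282, 55.7 and 52.1 CPM with halofuginone. The set A halofuginone value was the highest of the 6. The fits were -0.44 ± 0.70 (adjusted p = 0.706) and, in set B, -1.48 ± 0.08 (adjusted p = 3.06e-06). Pttg1, encoding securin, the inhibitor of separase, fell by 2.58 ± 0.11 in set B, from 47.8 and 55.5 CPM to 8.66 and 9.20 CPM. Espl1, which encodes separase itself, fell by 1.42 ± 0.09, and Ube2c, the ubiquitin-conjugating enzyme of the complex, by 1.79 ± 0.10.

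At the centromere, Cenpa (chr5:30666777-30674830), the histone H3 variant that marks it, stood at 158, 110 and 113 CPM in vehicle and 171, 26.2 and 25.7 CPM with halofuginone. Its fits were -0.77 ± 0.77 (adjusted p = 0.554) and -2.15 ± 0.08 (adjusted p = 4.33e-07), the lowest of the 7 kinetochore genes in set B. Ndc80, the microtubule-binding arm of the outer kinetochore, had the smallest fall of the 7, -0.70 ± 0.08. Its 3 partners in the Ndc80 complex, Nuf2, Spc24 and Spc25, fell by 1.80 ± 0.10, 1.29 ± 0.12 and 1.85 ± 0.12. The 4 transcripts of this complex spanned values from -0.70 to -1.85. Their errors of 0.12 or less rest on 2 libraries per group, the halofuginone ones unusually alike, and may reflect technical spread only. In the chromosomal passenger complex, Aurkb (chr11:69045647-69051664), its kinase, stood at 102, 68.4 and 69.9 CPM against 103, 21.1 and 19.6 CPM. The fits were -0.74 ± 0.68 (adjusted p = 0.524) and -1.81 ± 0.08 (adjusted p = 1.24e-06). Its partners Incenp, Birc5 and Cdca8 fell in set B by 1.38 ± 0.08, 1.05 ± 0.07 and 0.92 ± 0.08.

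Of the spindle motors, Kif11 (chr19:37376403-37421859), the kinesin that pushes the poles apart, stood at 143, 143 and 125 CPM in vehicle and 143, 51.0 and 52.2 CPM with halofuginone. The fits were -0.74 ± 0.43 (adjusted p = 0.357) and -1.43 ± 0.09 (adjusted p = 4.84e-06). Over the 9 spindle genes the set B values ran from -1.08 (Tpx2, which activates Aurora A on spindle microtubules) to -2.10 (Kif2c, a microtubule depolymerase). The 6 genes of the central spindle and cytokinesis ran from -1.11 (Ect2, which switches on RhoA at the cleavage plane) to -2.04 (Kif20a, a kinesin of the central spindle). Top2a (chr11:98992943-99024189), the topoisomerase that untangles sister chromatids, was the most abundant of the 47 by CPM, at 654, 535 and 504 CPM against 648, 252 and 248 CPM. Its fits were -0.56 ± 0.41 (adjusted p = 0.440) and -1.10 ± 0.07 (adjusted p = 6.40e-06). Mki67 (chr7:135689784-135716361), the proliferation marker that coats mitotic chromosomes, stood at 528, 460 and 486 CPM against 475, 95.5 and 102 CPM. It had the lowest fit over all 3 libraries, -1.13 ± 0.65 (adjusted p = 0.357), and -2.31 ± 0.08 in set B (adjusted p = 3.86e-07).

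Per kilobase of exon, the order of vehicle levels was another. Cdc20 was highest at 95.9 ± 27.1 CPM per kb (SD, n = 3), followed by Top2a at 63.8 ± 7.84 and Mki67 at 49.8 ± 3.15. Cdc25c, the phosphatase that activates Cdk1, was lowest at 4.91 ± 0.776 CPM per kb, next to Ttk, a checkpoint kinase, at 6.29 ± 0.808. Cdc20 and Top2a, and likewise Cdc25c and Ttk, differed by little more than their SDs. Promoters with and without CHR letters did not separate the sizes of the fall in set B: the median log2 fold change was -1.59 for the 29 genes with them, Bub3 among these, and -1.58 for the 10 without.

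Other cell cycle genes were counted in set B, where 36.9% of all genes tested were called lower and 33.1% higher. Of 36 other spindle and cytokinesis genes 28 fell and 5 rose (median -1.06), from Ckap2l (-2.68 ± 0.09), a spindle protein, to Kif2a (0.98 ± 0.11). Of 28 other kinetochore and centromere genes 23 fell and 2 rose (median -0.57), with Cenpm lowest (-1.71 ± 0.11) and Mis12 highest (0.69 ± 0.07). Of 20 condensin and cohesin genes 12 fell and 4 rose (median -0.38), with Ncaph, a condensin subunit, lowest at -2.02 ± 0.08. A list of 16 subunits and cofactors of the anaphase-promoting complex, which includes the activator Fzr1 and the enzyme Ube2s, gave 6 lower and 3 higher (median -0.04). Of 35 DNA replication genes 18 fell and 9 rose (median -0.22), from Tk1, thymidine kinase, at -1.86 ± 0.09 to Cdt1, a replication licensing factor, at 1.31 ± 0.07. Of 17 regulators of mitotic transcription 6 fell and 5 rose (median 0.09), with Rbl2, a pocket protein of DREAM, at -1.69 ± 0.08. Of 16 tested cyclins, CDKs and inhibitors that act outside mitosis 10 fell and 4 rose, from Cdkn2c at -2.69 ± 0.09 to Ccnd2, cyclin D2, at 1.24 ± 0.07. The difference between lists was not tested.

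The polysome pools show whether the mitosis mRNAs that ribosomes carried changed as total RNA did. They gave no call in any pool. In heavy polysomes the 47 log2 fold changes of halofuginone against vehicle ran from -0.39 to 0.38 with a median of -0.08, 27 of them below 0, against a median of 0.02 over all genes. edgeR called 0 of the 47 and 0% of all 12222 genes lower, the smallest adjusted p of a member was 0.926, and none had an unadjusted p under 0.05. DESeq2 called 0 of the 47, beside 0.401% of all genes lower and 0.237% higher. The libraries of 0 of the 47 were all below those of vehicle, against 7.06% of all genes. At the ends lay Kif18b (-0.39 ± 0.62), a kinesin of astral microtubules, and Ccnb2 (-0.30 ± 0.60), then Mad2l1 (0.31 ± 0.45) and Ube2c (0.38 ± 0.55). In light polysomes the values ran from -0.51 (Pttg1) to 0.55 (Ndc80) with a median of 0.07. Again 0 of 47 were called by edgeR, by DESeq2 or at an unadjusted p under 0.05. Of all 12632 genes edgeR called 0% lower, and DESeq2 called 0.111% lower and 0.198% higher. For 1 gene, Pttg1, all halofuginone libraries were below all vehicle libraries, at 120, 119 and 53.7 CPM against 128, 128 and 163 CPM (set A, tag 2 and tag 4, the order used for the pools), against 5.97% of all genes. In the ribosome-free pool 41 of the 47 were above 0 (median 0.20, all genes -0.001), from Cenpa (-0.19 ± 0.50) to Cenpe (0.57 ± 0.40), a kinesin of kinetochores. There too edgeR called 0 of 47 and 0% of 11960 genes lower, with 0 members at an unadjusted p under 0.05. DESeq2 called 0 members and 0% of all genes. These fits left out the header tag that the pool libraries share, so their errors include differences between tags. With the header tag as replicate block the medians were -0.21 in heavy polysomes, -0.11 in light polysomes and 0.16 in ribosome-free RNA. In each pool that fit called 0 of the 47, beside 0% to 0.0251% of all genes lower and 0.0164% to 0.1% higher.

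Behind these fits the pairs of libraries went separate ways, as in total RNA but along other tags. In light polysomes the median log2 ratio over the 47 genes was 0.09 in set A, 0.36 with tag 2 and -1.01 with tag 4, and in heavy polysomes it was -0.01, 0.30 and -0.75. The tag 4 pair had 45 of 47 genes below 0 in each, 24 of them lower by more than 2-fold in light and 13 in heavy polysomes. It was the lowest of the pairs for 46 of the 47 genes in both pools, and the tag 2 pair was the highest for 41 in light and 38 in heavy polysomes. Ribosome-free RNA had medians of 0.13, 0.38 and -0.01, and there the tag 4 pair was the lowest for 27 of the 47. Medians over all genes tested ranged from -0.02 to 0.02 over the pool pairs. In the tag 4 pair 50.5% of all genes lay below 0 in light and 49.9% in heavy polysomes, and the share beyond 2-fold was not counted. Without the tag 4 halofuginone library the median fitted log2 fold change of the 47 genes was 0.32 in heavy and 0.45 in light polysomes. Without that of tag 2 it was -0.17 and -0.19, and without that of set A -0.42 and -0.27, with 0 genes called in each. In ribosome-free RNA the same omissions gave 0.46 (tag 4), 0.04 (tag 2) and 0.06 (set A). Without the tag 4 vehicle library the ribosome-free median was -0.02, with 24 of the 47 below 0.

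**Figure D3:**
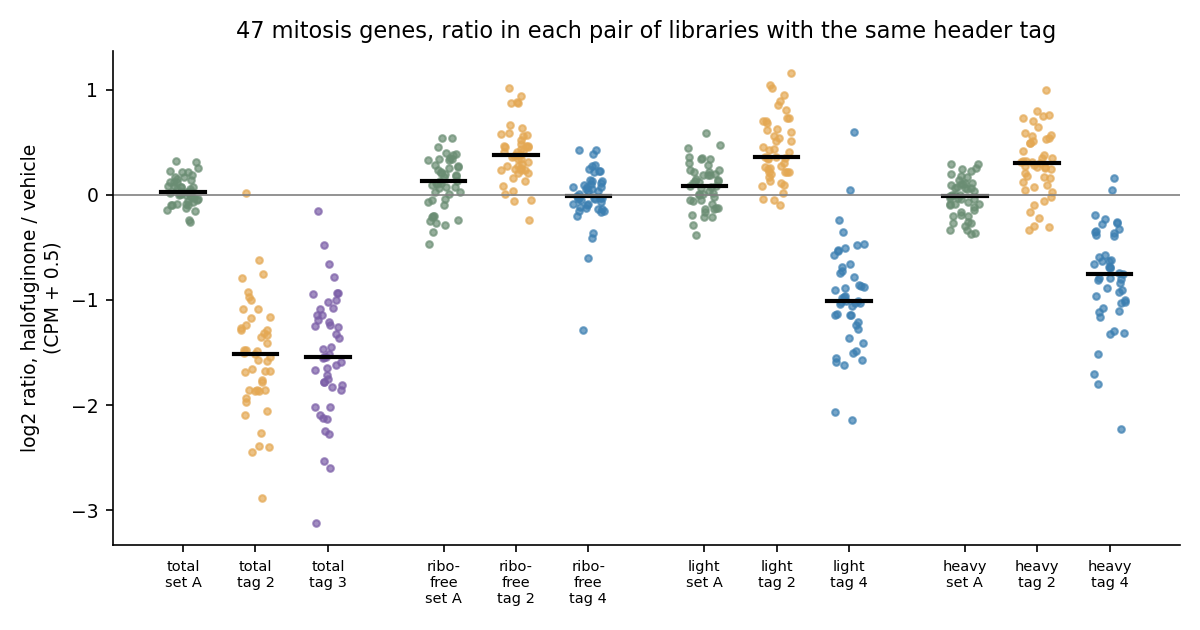
Log2 ratio of halofuginone to vehicle (from CPM plus 0.5) for each of the 47 mitosis genes, in every pair of libraries with the same header tag, with a black line at each median (ribo-free: ribosome-free RNA). In total RNA the tag 2 and tag 3 pairs lie near -1.5 and set A near 0, in light and heavy polysomes only the tag 4 pair lies low, and in ribosome-free RNA the medians lie between -0.01 and 0.38.

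Single genes show the pattern. Ccnb2 in heavy polysomes stood at 56.9, 52.2 and 42.3 CPM in vehicle and at 49.3, 65.0 and 8.67 CPM with halofuginone, so that 1 of 3 halofuginone libraries was low. Cdk1 in the heavy pool stood at 648, 475 and 435 CPM against 793, 701 and 370 CPM, with the tag 4 library again the lowest. Mki67 there had 67.0, 21.4 and 27.1 CPM against 55.7, 37.7 and 11.8 CPM. In each of these the groups overlapped. Cenpa in light polysomes stood at 259, 314 and 151 CPM against 198, 375 and 33.8 CPM, and its log2 ratio in the tag 4 pair, -2.15, was the lowest of the 47 in that pool. Bub3 differed from them in the tag 4 pair as well, with log2 ratios of 0.59 in light and 0.16 in heavy polysomes, the highest of the 47 in both.

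Genes of DNA replication did not follow the mitosis genes in the tag 4 pair. Their median log2 ratio there was 0.50 in light and 0.51 in heavy polysomes, with 4 of 35 below 0 in each, beside -1.01 and -0.75 for the mitosis genes. In the set B pairs of total RNA the replication genes had medians of -0.14 and -0.20. These are values of single pairs of libraries and carry no test. Trib3 was higher in the tag 4 pair of both polysome pools (log2 ratios 1.54 and 2.08), in which the mitosis genes were low, but also in the set A pair (3.55 and 3.91), in which they were not.

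Whether the effect of halofuginone differed between heavy polysomes and total RNA was tested directly. The difference of log2 fold changes, heavy minus total, was above 0 for all 47 genes, with a median of 0.64 (all genes -0.02), from Cdc20 (0.17 ± 0.88) and Bub3 (0.25 ± 0.33) to Mki67 (1.00 ± 0.95) and Spc25 (1.18 ± 0.83). None of the 47 passed: edgeR called 0, and 0 had an unadjusted p under 0.05. DESeq2 called 0 of the 47, beside 0% of all genes higher and 0.00743% lower. Of all 13459 genes 0% were called higher at the adjusted threshold and 0.29% at an unadjusted p under 0.05. The median fell to 0.20, with 14 genes below 0, without the set A halofuginone library of the heavy pool, and stood at 1.57 without that of total RNA. Heavy minus ribosome-free had a median of -0.16 with 36 of 47 below 0, where the median of all genes was 0.08. Of the 47, edgeR and DESeq2 each called 0, beside 0% of all 13053 genes. This median was -0.58, with 41 below 0, without the set A halofuginone library of the heavy pool. It was 0.24, with 9 below 0, without the set A vehicle library of that pool.

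Where mitosis mRNAs sit along the gradient was compared within each treatment, heavy polysomes against the ribosome-free pool, with TMM scaling over those 6 libraries. In vehicle cells 5 of the 47 genes were higher in heavy polysomes, while 11.9% of 12225 genes were called higher, and 1 was lower, while 17.7% were called lower. With the header tag as a replicate block, 10 were higher and 2 lower, beside 16.8% and 20.1% of all genes. The 5 were Espl1 (2.20 ± 0.51, adjusted p = 0.0127), Bub1b (1.72 ± 0.35, adjusted p = 8.01e-03), Nek2 (1.71 ± 0.53, adjusted p = 0.0400), Cdca8 (1.55 ± 0.45, adjusted p = 0.0292) and Racgap1 (1.40 ± 0.39, adjusted p = 0.0261), a GTPase regulator of the central spindle. In CPM of the library total, Espl1 was low in the ribosome-free pool, at 3.80, 3.69 and 2.26, and reached 41.9, 24.9 and 13.5 in heavy polysomes. For Bub1b the values were 18.6, 19.8 and 15.7 against 134, 96.8 and 83.5, and no library of either gene overlapped with the other pool. Library totals include mitochondrial counts, which made up 8.69% to 34.9% of the vehicle ribosome-free libraries and 0.276% to 0.394% of the heavy ones. This lowers the CPM of other genes in the ribosome-free pool. The count of calls moved with the libraries used: without the set A ribosome-free library 14 of the 47 were called higher, beside 23.1% of all genes, and 2 were, beside 5.72% to 7.55%, without either of the other ribosome-free libraries or without the set A or tag 2 library of the heavy pool.

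Cenpa was the 1 gene lower in heavy polysomes, at -2.58 ± 0.53 (adjusted p = 8.03e-03). It stood at 268, 185 and 108 CPM of the library total in ribosome-free RNA and at 60.7, 80.1 and 32.4 in heavy polysomes. At 405 bases its coding sequence is the shortest of the 47, and Espl1, at 6357 bases, is among the long ones. Other members did not follow this order. Cenpe, Cenpf, Aspm and Mki67 are longer still (7416 to 9534 bases) and were not called, at -0.24 to 0.98. Cdca8, called higher, has 981 bases. Protein length and the log2 ratio of heavy to ribosome-free correlated across the 47 genes with a Spearman rho of 0.31, beside 0.46 across 10964 genes, which share libraries and are not replicates. Other values of the 12 genes were Cdc20 at 1.45 ± 0.61 (adjusted p = 0.100), Aurkb at 1.05 ± 0.50 (0.146), Bub3 at 0.74 ± 0.47 (0.261), Bub1 at 0.71 ± 0.41 (0.216), Ccnb2 at 0.69 ± 0.47 (0.300) and Top2a at 0.67 ± 0.38 (0.216). Plk1 had 0.45 ± 0.53 (0.560), Mki67 0.45 ± 0.49 (0.519), Cdk1 0.31 ± 0.54 (0.697), Ccnb1 0.11 ± 0.35 (0.836) and Kif11 -0.35 ± 0.44 (0.580). None of these passed. With the replicate block Cdc20 (1.76, adjusted p = 0.0161) and Aurkb (1.20, adjusted p = 0.0256) did.

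**Figure D4:**
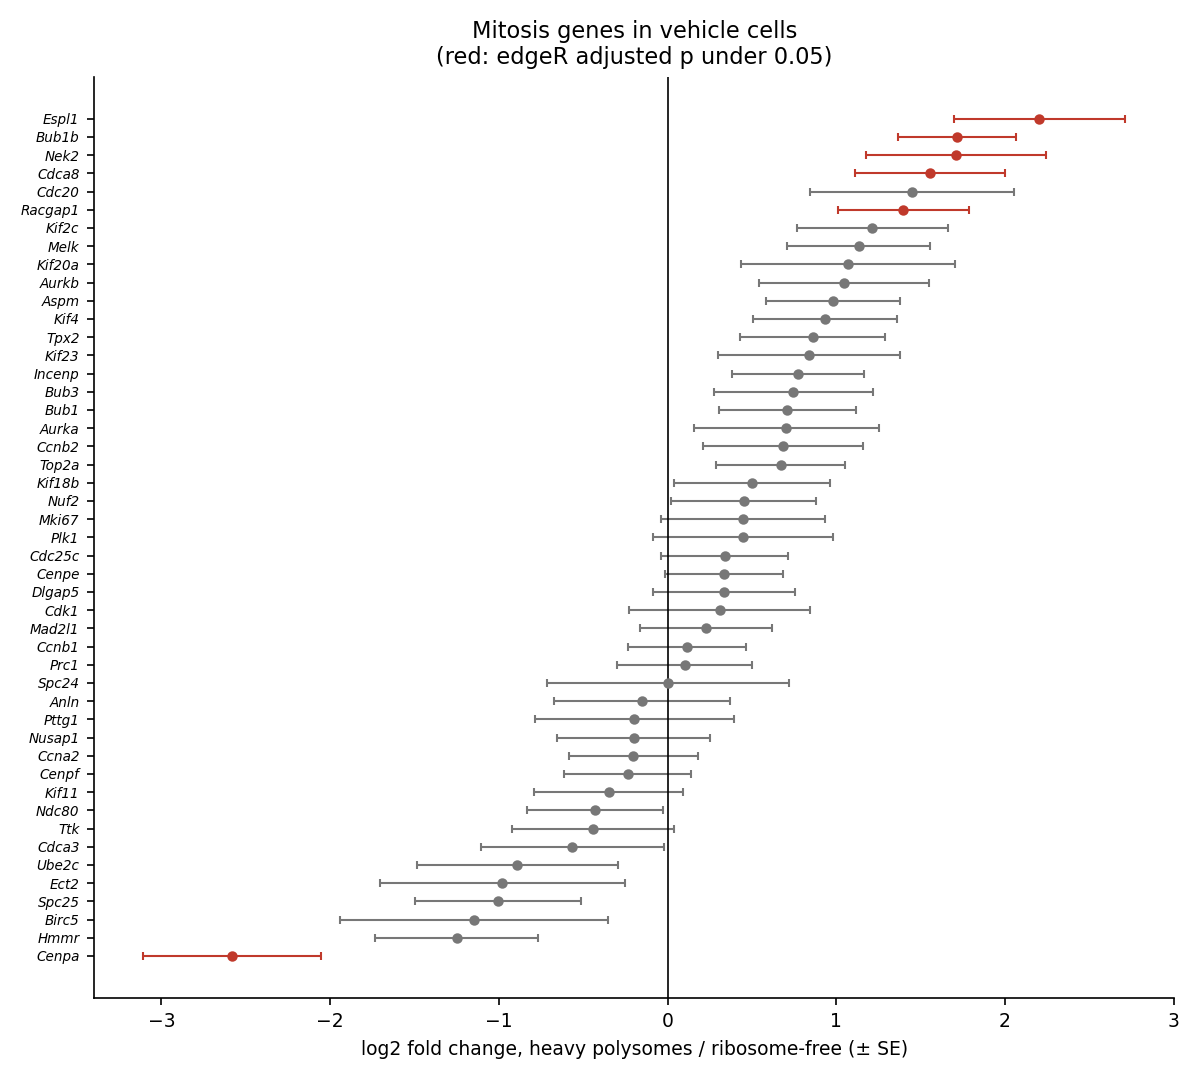
Log2 fold change of heavy polysomes against the ribosome-free pool in vehicle cells for the 47 mitosis genes, with bars of 1 SE and genes with an edgeR adjusted p under 0.05 in red. Espl1 lies highest at 2.20 and Cenpa lowest at -2.58, and 32 of the 47 lie above 0.

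With halofuginone, Cenpa was again lower in heavy polysomes (-2.44 ± 0.70, adjusted p = 0.0330), and so was Hmmr (-1.70 ± 0.55, adjusted p = 0.0492), which encodes a microtubule-associated protein of the spindle. In the ribosome-free pool Cenpa stood at 190, 173 and 123 CPM of the library total, in heavy polysomes at 47.3, 102 and 9.02. These 2 of 47 stand beside 12.6% of 12238 genes called lower. No member was called higher by edgeR, beside 8.47% of all genes. There 5 members had an unadjusted p under 0.05, and the share of all genes at that threshold is not given here. DESeq2 called 3 higher, beside 11.4% of all genes. With the replicate block 4 were higher, beside 13.4%. Hmmr in vehicle cells had -1.25 ± 0.48 (adjusted p = 0.0788) and, with the replicate block, -1.41 (adjusted p = 0.0419). Without the tag 2 ribosome-free library, or the set A or tag 4 library of the heavy pool, 0 of the 47 were called lower with halofuginone, beside 4.25% to 10.3% of all genes, and 1 was without any other library, beside 8.5% to 14.8%.

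How the mitosis mRNAs were represented in the gradient pools relative to total RNA varied with coding length. For each gene the mean of its CPM in the 3 pools was divided by its CPM in total RNA, both per library total. In vehicle cells the log2 of this ratio ran from -4.09 for Mki67 (9534 coding bases) to 1.30 for Ube2c (540 coding bases). Across the 47 genes it correlated with log coding length at a Spearman rho of -0.94 (Pearson r -0.92), and across 11499 genes at -0.70. The correlation over the 47 was -0.93 in set A, -0.94 in set B and -0.93 with halofuginone, all from libraries that share the gene set and partly the total RNA. The 11 genes with under 1 kb had a median of 0.42, the 25 of 1 to 3 kb -0.70, and the 11 of 3 kb or more -2.35. Over all genes the same bands had medians of 0.42, -0.46 and -1.57. The 3 pools entered the mean with equal weight, whatever amount of RNA each held. Mitochondrial counts were 2.42% to 4.17% of the vehicle total RNA libraries but 8.69% to 34.9% of the ribosome-free ones, which shifts the ratios. The treatment ratios above compare each gene with itself within a pool.

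**Figure D5:**
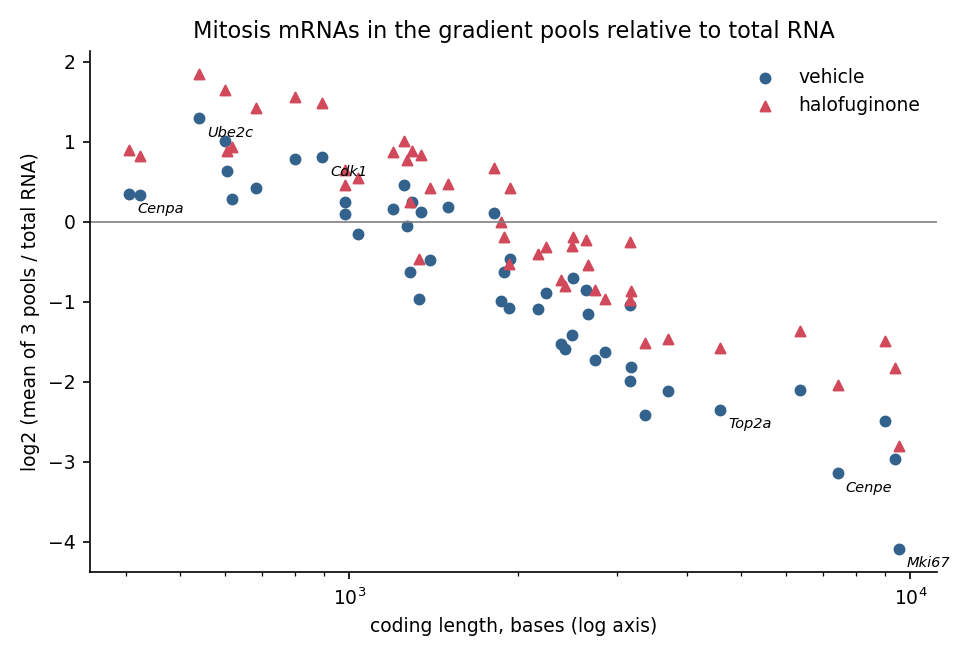
Log2 ratio of the mean CPM in 3 pools to the CPM in total RNA against coding length in bases (log axis), for 47 mitosis genes in vehicle (blue circles) and halofuginone (red triangles). The short Ube2c lies highest and the long Mki67 lowest, at -4.09 in vehicle.

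Since halofuginone acts on the charging of proline tRNA, proline content was compared too. The 47 proteins had a median of 5.67% proline, from 1.26% to 12.6%, beside 5.50% over all genes with a coding sequence. Proline percentage and log2 fold change had a Spearman rho of -0.11 in heavy polysomes, -0.07 for heavy minus total and -0.19 in total RNA of set B across the 47 genes. For the number of prolines in place of the percentage the rho was -0.43 in heavy polysomes (Pearson r -0.30), 0.00104 for heavy minus total and -0.11 in total RNA of set B. The number of prolines depends on protein length as well as on proline percentage, and the part of length in these rho values was not tested. All of these values describe genes of the same libraries.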

How the data were processed

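RNA-seq libraries of total RNA and 3 gradient pools from NIH/3T3 cells, with halofuginone or PBS, were used, 24 in all. The authors deposited counts per gene symbol in a single table, whose whole numbers sum to a different total in each library (10300517 to 24970047). The authors used GRCm38.p5 with STAR 2.5.2b, featureCounts of Subread 1.5.0p3 and Trimmomatic 0.36, per the submitters' processing notes. How strand and multiply mapped reads were handled is not given in the sources used here. Overlapping genes and genes with close copies are therefore less certain. Columns were matched to groups by their headers and not to numbered samples, and 0 columns belonged to no group.

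Counts were tested in R 4.3.3 with edgeR 4.0.16 (quasi-likelihood fit and test, TMM factors, filterByExpr, Benjamini-Hochberg adjustment over all genes tested, threshold 0.05). Each comparison was fitted from its own groups, and differences of effects from an interaction over 4 groups. Pair ratios are log2 of CPM plus 0.5. Alternatives were DESeq2 1.42.0, median-of-ratios factors, no filter, a filter at 5 CPM, each library left out, the header tag as replicate block, the header set as covariate and set B alone. Same-tag libraries deviated together in every pair of the pools, with correlations across genes of 0.36 to 0.91 between treatments in a pool. Between heavy and ribosome-free pools these were 0.22 to 0.48. The tag was thus taken to pair the pool libraries. The main fits left this pairing out, and it entered a fit only where the replicate block is named. In total RNA the correlations were 0.34, 0.39 and -0.005, and the tag was not taken to pair libraries. The scripts were tested on simulated data. The lowest count of any member in a library was 7 (Espl1, ribosome-free, halofuginone with tag 4). In ribosome-free RNA Espl1 had 66, 38 and 25 counts in vehicle and 75, 82 and 7 with halofuginone. Its ratios there rest on few counts.

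Promoters came from RefSeq (GRCm38.p6), gene coordinates and coding sequences from GENCODE M21 (GRCm38). The genes, lists and tests were chosen with earlier results of these data known. A set of 12 genes spread over the roles is given individually in total RNA and in vehicle heavy against ribosome-free RNA. Other comparisons give ranges and the 2 lowest and 2 highest members, and lists their lowest and highest genes. Trib3 was added as a marker of the response after its values were seen. Members called in a comparison are also named.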

Additional observations from a re-analysis of the deposited data

Results flagged for a closer look

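For 6 genes every pair of libraries with the same header tag moved one way in total RNA and every pair the other way in a gradient pool. The difference between the kinds of RNA was not tested, and the share of all genes that meet this rule was not counted. Among the 47, 19 had all 3 pairs below 0 in total RNA and 15 had all 3 above 0 in ribosome-free RNA. Libraries of total RNA with the same tag share that tag only: their deviations correlated at 0.34, 0.39 and -0.005 (set A, tag 2 and tag 3), and they were not taken as paired. In total RNA all 3 pairs were below 0 and in ribosome-free RNA all 3 were above 0 for Melk, Ttk, Cenpe, Kif11 and Top2a. The difference of the mean log2 pair ratios, ribosome-free minus total, was 1.68 for Melk, a kinase of proliferating cells, 1.39 for the checkpoint kinase Ttk and 1.65 for the kinetochore motor Cenpe. It was 1.21 for Kif11 and 1.14 for Top2a. Mad2l1 met the same rule in light polysomes, with a difference of 0.57. In each of them the set A pair of total RNA was close to 0 (-0.14 to -0.00 in log2), so the shared sign rests on a small value there. Some pool values were small too. The tag 4 ratio was 0.04 for Kif11 and 0.08 for Top2a in ribosome-free RNA, and 0.04 for Mad2l1 in light polysomes.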

How the results depend on the processing

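Scaling, tool and filter changed no treatment call of the 47 genes. Under each of these 46 were called lower in total RNA of set B, beside 22.7% to 38.7% of all genes. In the other treatment comparisons 0 were called, beside 0% to 1.68% of all genes called lower and 0% to 2.26% called higher. Which libraries were used mattered more. In total RNA the number called lower ranged from 0 to 46 over libraries left out. It was 46 without the set A halofuginone library, beside 31.6% of all genes. Over all of total RNA the log2 fold change of Bub3 ranged from -0.18 to 0.0813. The replicate block (header tag) changed no treatment call, but it moved the medians over the 47 genes. In light polysomes the median turned from 0.07 to -0.11, with 31 of the 47 below 0. In heavy polysomes it went from -0.08 to -0.21, with 36 below 0. Shares of all genes called the same way stand in brackets below. For vehicle heavy against ribosome-free RNA the number higher was 5 (11.9%). It was 10 with the replicate block (16.8%), 10 with the header set as covariate (17.6%) and 11 with no filter (10.1%). Set B alone gave 11 (22.1%), DESeq2 7 (15.6%) and the stricter filter 4 (9.73%). The number lower was 1 (17.7%). It was 2 with DESeq2, the stricter filter, the replicate block or the covariate (18.2% to 21.6%) and 4 in set B alone (23.3%). Over libraries left out these ranged from 2 to 14 (5.72% to 23.1%) and from 1 to 2 (9.46% to 24%). With halofuginone the number higher was 0 (8.47%). It was 4 with the replicate block (13.4%), 3 with DESeq2 (11.4%), 7 with no filter (7.4%) and 2 with the covariate (12.9%). Left-out libraries gave 0 to 3 higher (1.18% to 13.9%) and 0 to 1 lower (4.25% to 14.8%). The cause was not tested.

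Some signs turned. Ccnb1 in vehicle heavy against ribosome-free RNA was -0.12 with the stricter filter, -0.10 in set B alone and -0.0609 to 0.38 over left-out libraries, and Mki67 -0.0197 in set B alone and -0.16 to 0.80. In ribosome-free RNA Spc24 was 0.0540 with the replicate block, 0.0827 with the covariate, 0.28 in set B alone and -1.27 to 1.42 over left-out libraries, and Cenpa 0.0319 in set B alone and -0.49 to 0.24. Over left-out libraries light polysomes gave -0.65 to 0.0189 for Ccnb2 and -0.12 to 0.81 for Kif11. Heavy polysomes gave -1.07 to 0.12 for Kif18b, -0.80 to 0.19 for Ccnb2, -0.17 to 0.67 for Mad2l1 and -0.24 to 0.81 for Ube2c. Heavy minus total gave -0.47 to 1.44 for Cdc20, and heavy minus ribosome-free -1.10 to 0.55 for Ect2, -0.73 to 1.03 for Ube2c and -0.37 to 0.95 for Spc25. With the number of prolines in place of the percentage the rho was 0.00104 for heavy minus total and -0.43 in heavy polysomes. That number also depends on protein length, whose part was not tested. On the forward strand alone CHR letters stood in 59.5% of the members' promoters and 10.2% of all.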
